A study of Mus musculus with 6 samples.

Results

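The genes described here are 8 mouse genes whose transcripts held some of the largest differences in exon or intron inclusion in this series: Anxa7, Slc38a6, Tpd52, Sbf2, Rtn3, Atl1, Sidt2 and Hps1. They were chosen on the size of those differences, so the inclusion values below are a description and carry no test. Together they had 100 of the 61715 listed splicing events and are 8 of the 10898 genes with any listed event. The messenger RNA came from small intestinal crypt cells of C57BL/6 mice aged 60 days. The 3 libraries of the group WT came from Ptbp1f/f mice, which carry floxed Ptbp1 alleles and no Cre. The 3 libraries of the group PTBP1_KO came from Ptbp1f/f;Vil-creER+/- mice, in which villin regulatory sequence drives a tamoxifen-inducible Cre in the intestinal epithelium and not in other cells of the gut wall. Mice of both genotypes were given 2 daily injections of tamoxifen at 100 mg/kg, and crypt cells were taken 20 h after the last. The labels do not say whether each library is a separate mouse.

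PTBP1, the polypyrimidine tract-binding protein, binds RNA stretches rich in cytosine and uracil and is best known for keeping cassette exons out of messenger RNA. A cassette exon is one that is either kept in the mature transcript or skipped, and an exon whose length is a multiple of 3 adds or removes amino acids without shifting the reading frame. The study asked about PTBP1 in regeneration of the intestinal epithelium. Most of the 8 proteins work on membranes: Anxa7 and Tpd52 in vesicle fusion and secretion, Rtn3 and Atl1 in shaping the endoplasmic reticulum (ER), Sidt2, Hps1 and Sbf2 on lysosomes and endosomes, and Slc38a6 as a member of a family of amino acid transporters.

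The splicing tables list reads in 6 libraries as a first set of 3 and a second set of 3, and the headers do not say which set is which genotype. Values are therefore given for the first and the second set, with no direction by genotype. An inclusion level is the share of transcripts that keep the region, from 0 to 1, computed for each library from the reads that include or skip it, each divided by the length of sequence that could yield such reads. A changed event is one with a false discovery rate (FDR) from the authors below 0.05, an inclusion difference (the authors', first minus second set) of 0.1 or more in size, and a mean of 20 or more reads per library. Of the 90 member events with that many reads, 20 were changed, where 1.56% of all events were. This count follows from the choice of the genes. Of the 20, 12 were skipped exons (background 1.68%), 5 were pairs of mutually exclusive exons (1.02%), 2 were retained introns (2.06%) and 1 was an alternative 5′ splice site (1.57%). The only alternative 3′ splice site listed (background 1.1%) had too few reads to count. The difference was positive in 14 events and negative in 6. In 19 of the 20 all 3 libraries of one set lay above the other set, which was so for 9.15% of all events, and the exception was the Atl1 intron. This separation too follows largely from how the events were chosen, since most of all events were not changed.

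**Figure D1:**
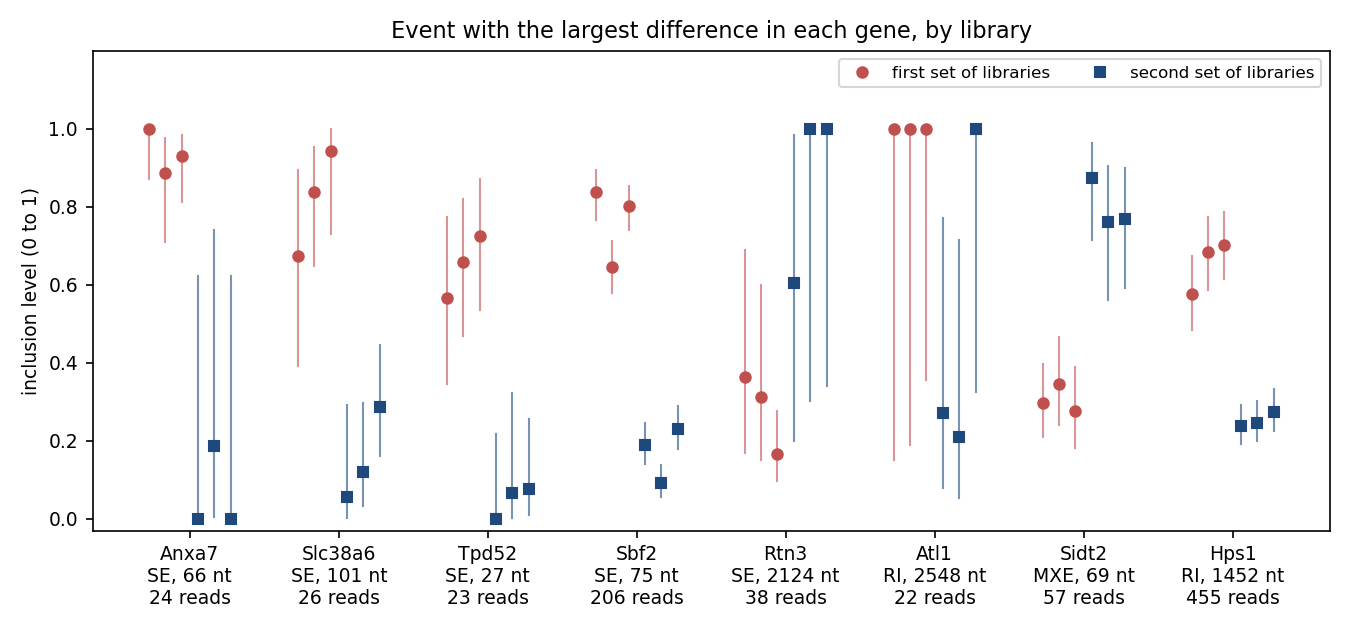
Inclusion level (y axis, 0 to 1) in each of the 6 libraries for the event with the largest difference in each gene, with the type (SE skipped exon, RI retained intron, MXE mutually exclusive exons), the length and the mean reads below. Circles are the first set, squares the second set, and bars are exact 95% intervals for counting error only. The sets stand apart in 7 genes and overlap in Atl1, where one second-set library sits at 1.

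The depth behind these events was uneven. The 8 events with the largest differences had a median of 31.8 reads per library, against 262 over all events tested and 186 over the 90 member events. In 4 of the 8 at least one library had fewer than 20 reads. The same exon was often listed again beside another pair of neighbouring exons with many more reads, so the genes are described below with more than one listing where there are several. Intervals are exact Clopper-Pearson 95% intervals of the read share, carried over to the inclusion level, and cover counting error only.

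**Figure D2:**
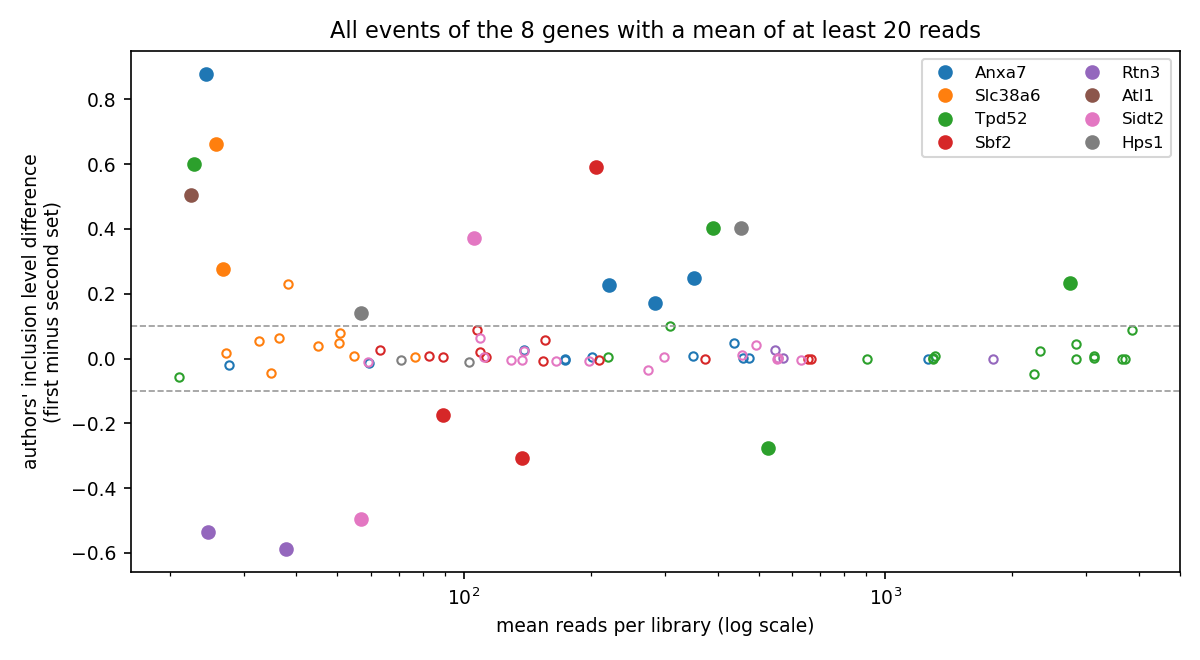
Authors' inclusion difference, first minus second set (y axis), against mean reads per library on a log scale (x axis) for the 90 events of the 8 genes with a mean of at least 20 reads. Filled points are the 20 changed events, open points the rest, and dashed lines mark differences of 0.1 either way. The points furthest from 0 sit mostly to the left, where reads are few, while Sbf2, Tpd52, Hps1 and Anxa7 also have changed events at 206 reads or more.

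Anxa7 encodes a calcium-dependent, phospholipid-binding annexin that promotes membrane fusion, and a longer isoform holding a cassette exon is known from muscle, heart and brain. The exon that separated the sets is 66 nt long, chr14:20467458-20467523 on the minus strand of GRCm38/mm10. It is coding in 1 of the 11 transcripts annotated in GENCODE M21, where it lengthens the coding sequence from 1389 to 1455 nt. The sequence is shown, exon in capitals between its spliced neighbours in lower case, because its pyrimidine run is the feature discussed further on.
Anxa7 66 nt exon: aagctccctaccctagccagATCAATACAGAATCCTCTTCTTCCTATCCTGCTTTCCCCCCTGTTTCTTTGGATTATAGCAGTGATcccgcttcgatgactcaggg

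Read against its immediate neighbours, the 66 nt exon of Anxa7 had inclusion levels of 0.272, 0.181 and 0.299 in the first set and 0, 0.006 and 0 in the second. Inclusion reads numbered 107, 96 and 153 in the first set and 0, 3 and 0 in the second, while 196 to 361 reads per library skipped the exon. The second set thus held this exon in almost no transcripts, with upper 95% bounds of 0.00817, 0.0174 and 0.00699. The authors' deposited table gave a difference of 0.249 with an FDR listed at 0. The same exon is also listed next to a more distant downstream exon, with the 103 nt exon between them left out. There the levels were 1, 0.886 and 0.930 against 0, 0.186 and 0, and the authors' deposited table gave 0.877, the largest difference of any skipped exon with a mean of 20 or more reads. These levels are not shares among transcripts that lack the 103 nt exon. Where the 103 nt exon itself is listed, only 0, 1 and 1 first-set reads joined the 66 nt exon straight to the distant exon. In each second-set library the number was 0. Only 0 to 3 reads per library skipped the 66 nt exon when it was listed with the distant exon, and each second-set library had 3 or 4 reads in all. The upper 95% bounds in the second set were 0.624, 0.740 and 0.624. A mutually exclusive listing of the 66 nt exon with the 103 nt exon rests on the same inclusion reads and had a difference of 0.228 in the authors' deposited table.

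A further Anxa7 event set a 102 nt exon against a 65 nt exon upstream of the cassette exon. The 102 nt form had levels of 0.493, 0.50 and 0.593 in the first set and 0.353, 0.339 and 0.374 in the second. No library of one set reached the other, and the authors' deposited table gave a difference of 0.173 (FDR 6.60e-05). No annotated transcript that spans either exon leaves it out. Listed singly as skipped exons, the 102 nt exon was at 0.996 or more and the 65 nt exon at 0.985 or more in every library. Both were thus nearly always kept, and the paired levels are a ratio of their reads and not a choice between them.

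Tpd52 encodes a coiled-coil protein of vesicle traffic and secretion and is abundant in secretory epithelia. Neighbouring exons of 42 nt and 27 nt separated the sets, at chr3:8936439-8936480 and chr3:8943551-8943577 on the minus strand. They lie between the same pair of exons, as the shared lower-case flanks show. The coding sequence annotated without either is 555 nt, with the 27 nt exon 582 nt and with the 42 nt exon 597 nt.
Tpd52 27 nt exon: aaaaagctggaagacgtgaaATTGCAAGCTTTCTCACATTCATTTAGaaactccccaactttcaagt
Tpd52 42 nt exon: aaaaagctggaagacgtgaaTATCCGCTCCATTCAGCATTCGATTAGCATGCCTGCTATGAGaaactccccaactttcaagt

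The 42 nt exon of Tpd52 carried the better measured difference. Its inclusion levels were 0.239, 0.222 and 0.296 in the first set and 0.020, 0.015 and 0.019 in the second, on a mean of 2742 reads per library. In reads, 764, 810 and 1067 included it in the first set and 63, 45 and 72 in the second. Every first-set library lay above all second-set libraries, and the authors' deposited table gave a difference of 0.234. Read against the 27 nt exon as its upstream neighbour, the 42 nt exon was at 0.896, 0.880 and 0.888 in the first set and at 0.544, 0.454 and 0.454 in the second, a difference of 0.404 in the authors' deposited table. The 27 nt exon with the 42 nt exon as its downstream neighbour was at 0.286, 0.275 and 0.279 against 0.131, 0.211 and 0.20. Its difference of 0.099 in the authors' deposited table had an FDR of 0.167. In both listings, reads of the exon that do not reach the named neighbour also count as inclusion. The levels are thus not shares among transcripts that hold the neighbour. These listings had means of 390 and 308 reads, while the 27 nt exon was at most at 0.040 between the main neighbouring exons.

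The 27 nt exon of Tpd52 was rarer. Between the main neighbouring exons it was at 0.029, 0.031 and 0.040 in the first set and 0.009, 0.010 and 0.012 in the second, on a mean of 2329 reads. Here too the sets stood apart, yet the difference of 0.023 in the authors' deposited table (FDR 7.26e-14) was below 0.1. Its largest listed difference, 0.602 in the authors' deposited table, came from a listing with a more distant downstream exon as its neighbour. The levels there were 0.567, 0.659 and 0.725 against 0, 0.066 and 0.078, on a mean of 22.8 reads and with at most 2 inclusion reads in any second-set library. Reads of the 27 nt exon that do not reach the distant exon also count as inclusion. These levels are thus not shares among transcripts that lack the usual downstream exon. Where one of the 2 exons was used, the 27 nt form made up 0.086, 0.101 and 0.090 in the first set and 0.310, 0.404 and 0.394 in the second. This ratio was higher in the second set although each exon on its own had lower levels there. The authors' deposited table gave -0.277 for it.

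**Figure D3:**
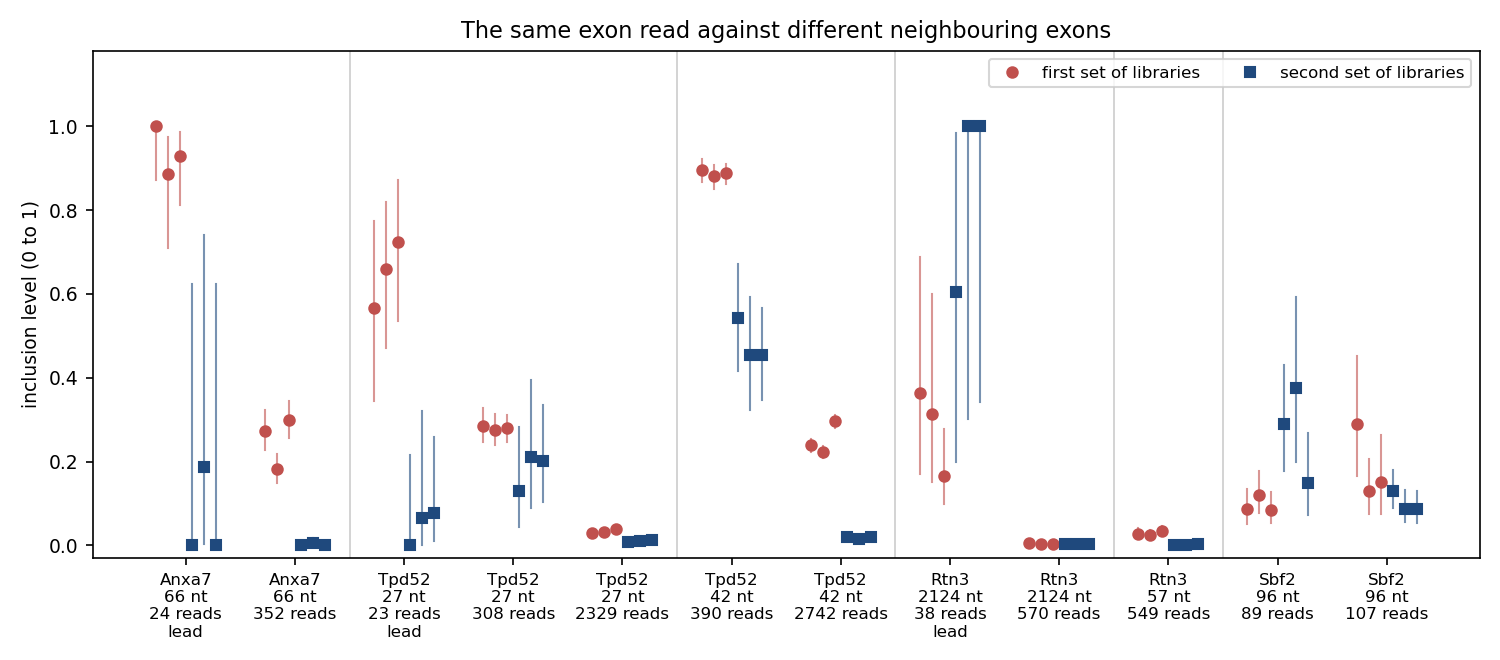
Inclusion level (y axis, 0 to 1) by library for exons of Anxa7, Tpd52, Rtn3 and Sbf2, each shown in every listing with a mean of at least 20 reads, with exon length and mean reads below and bars for exact 95% counting intervals. Circles are the first set and squares the second; "lead" marks the listing with the gene's largest difference. The Rtn3 exon of 2124 nt goes from widely separated sets at 38 reads to levels near 0 in both sets at 570 reads.

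Rtn3 encodes a reticulon, a hairpin membrane protein of curved ER tubules, and its long isoforms, which hold a very large exon, act as receptors for autophagy of the ER. That exon is listed in lengths of 2124 nt and 1161 nt, which share their 3′ end, at chr19:7456300-7458423 and chr19:7456300-7457460 on the minus strand. Listed with an upstream 57 nt exon as its neighbour, the 2124 nt exon had inclusion levels of 0.364, 0.314 and 0.166 in the first set and 0.604, 1 and 1 in the second. The authors' deposited table gave a difference of -0.587 (FDR 2.26e-05), the largest negative one among skipped exons with enough reads. The 1161 nt form was at 0.356, 0.306 and 0.205 against 0.469, 1 and 1, with a difference of -0.534 in the authors' deposited table.

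Both Rtn3 values rest on few skipping reads, 4, 5 and 15 in the first set and 1, 0 and 0 in the second. Reads that included the 2124 nt exon numbered 36, 36 and 47 against 24, 27 and 32. The same inclusion reads were counted in the listing against the main first exon, so the listings differ only in their skipping reads, and these levels are not shares among transcripts that hold the 57 nt exon. Read against the main first exon, the 2124 nt exon was at 0.004 to 0.005 in the first set and at 0.003 to 0.004 in the second, on a mean of 570 reads, and the authors' deposited table gave a difference of 0.001 (FDR 1). The 1161 nt form against that exon also had a difference of 0.001 (FDR 1) in the authors' deposited table, on a mean of 557 reads. In these listings, which are the better covered, the large exon was thus nearly always skipped in both sets.

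The 57 nt exon of Rtn3, chr19:7467811-7467867, is the upstream neighbour in the listing above. Its levels were 0.026, 0.024 and 0.034 in the first set and 0.001, 0 and 0.003 in the second, with 17, 20 and 33 inclusion reads against 1, 0 and 2. The sets did not overlap, and the difference of 0.027 in the authors' deposited table (FDR 5.81e-07) was under the size asked of a changed event. It is shown for its unbroken pyrimidine stretches and was picked out after its values were seen.
Rtn3 57 nt exon: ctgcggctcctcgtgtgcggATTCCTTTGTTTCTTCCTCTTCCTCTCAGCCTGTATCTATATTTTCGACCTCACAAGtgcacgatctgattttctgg

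Atl1 encodes atlastin-1, a GTPase that fuses ER tubules and is found mainly in neurons. Its changed event was a retained intron of 2548 nt, chr12:69932322-69934869 on the plus strand. The levels were 1, 1 and 1 in the first set and 0.272, 0.211 and 1 in the second, so the sets overlapped. Only 4 reads in all joined the flanking exons, 2 in each of 2 second-set libraries, while 10 to 40 reads per library fell in the intron. The lower 95% bounds in the first set were 0.151, 0.190 and 0.356, and the lowest second-set level was 0.211. The authors' deposited table gave a difference of 0.506 (FDR 0.00946). The gene was listed at 0.298 FPKM in WT and 0.277 FPKM in PTBP1_KO, at the 7.48th percentile of tested genes in WT.

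Sidt2 encodes a membrane protein of lysosomes that takes part in moving RNA into them. Exons of 69 nt and 12 nt lie in tandem between the same neighbours, at chr9:45947629-45947697 and chr9:45947541-45947552 on the minus strand. Each is coding in 2 of the 14 annotated transcripts.
Sidt2 69 nt exon: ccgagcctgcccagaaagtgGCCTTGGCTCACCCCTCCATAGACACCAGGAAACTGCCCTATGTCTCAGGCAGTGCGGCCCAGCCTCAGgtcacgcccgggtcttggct
Sidt2 12 nt exon: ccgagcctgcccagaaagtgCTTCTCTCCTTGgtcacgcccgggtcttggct

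The 12 nt exon of Sidt2 was at 0.467, 0.349 and 0.454 in the first set and 0.035, 0.061 and 0.057 in the second. In reads, 57, 40 and 46 included it in the first set and 4, 6 and 7 in the second. The sets lay far apart, and the authors' deposited table gave a difference of 0.372 with an FDR listed at 0. The 69 nt exon was at 0.271, 0.221 and 0.241 in the first set and 0.201, 0.171 and 0.168 in the second, and the difference of 0.064 in the authors' deposited table had an FDR of 0.565. Set against each other, the 69 nt form made up 0.298, 0.347 and 0.276 in the first set and 0.874, 0.760 and 0.770 in the second, a difference of -0.494 in the authors' deposited table. This last value uses the same reads of the 12 nt exon in all 6 libraries and is no separate measurement of it.

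Hps1 encodes a subunit of the complex that activates Rab32 and Rab38 during the making of lysosome-related organelles. An intron of 1452 nt, chr19:42756341-42757792 on the minus strand, was retained at 0.577, 0.684 and 0.703 in the first set and at 0.238, 0.246 and 0.274 in the second. This was the best covered of the 8 largest differences, with a mean of 455 reads, and the 95% intervals ran from 0.483 to 0.787 in the first set and from 0.193 to 0.333 in the second. The sets did not overlap, and the authors' deposited table gave 0.402 with an FDR listed at 0. Reads in the intron numbered 438, 551 and 657 against 246, 261 and 289, and reads across the splice junction 29, 23 and 25 against 71, 72 and 69. Read on in the frame of the 3 annotated coding transcripts that splice it out, the intron gives a first stop codon, TGA, after 33 bases. The junction is shown with the exon in capitals and the intron in lower case.
Hps1 exon and start of the retained intron: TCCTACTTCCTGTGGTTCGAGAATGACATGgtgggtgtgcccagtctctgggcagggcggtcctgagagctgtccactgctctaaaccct

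A second Hps1 event, an alternative 5′ splice site that adds 24 nt at chr19:42766686-42766709, was used at 0.264, 0.357 and 0.290 in the first set and 0.170, 0.195 and 0.119 in the second. Again all of the first set lay higher, and the authors' deposited table gave 0.142 (FDR 0.0297).

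Sbf2 encodes a catalytically inactive myotubularin that guides Rab and phosphoinositide signalling on endosomes and is mutated in a form of Charcot-Marie-Tooth neuropathy. An exon of 75 nt, chr7:110341290-110341364, and one of 96 nt, chr7:110347887-110347982, lie in tandem on the minus strand. The 75 nt exon lengthens the annotated coding sequence from 5541 to 5616 nt. Both are shown because, unlike most of the other exons shown, they are not rich in pyrimidines.
Sbf2 75 nt exon: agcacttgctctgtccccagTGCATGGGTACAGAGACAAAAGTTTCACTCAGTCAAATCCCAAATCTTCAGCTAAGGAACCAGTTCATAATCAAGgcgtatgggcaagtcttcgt
Sbf2 96 nt exon: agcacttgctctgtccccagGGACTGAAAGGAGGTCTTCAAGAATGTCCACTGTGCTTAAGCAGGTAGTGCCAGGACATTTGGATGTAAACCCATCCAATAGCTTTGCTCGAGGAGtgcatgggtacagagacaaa

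The 75 nt exon of Sbf2 was at 0.837, 0.647 and 0.801 in the first set and 0.189, 0.091 and 0.230 in the second. The highest second-set library stayed well under the lowest first-set library, on 159 or more reads in every library. The authors' deposited table gave 0.592 with an FDR listed at 0. The listed differences of the 96 nt exon changed sign with the neighbours used. Listed with the 75 nt exon as its downstream neighbour, it was at 0.087, 0.120 and 0.085 in the first set and 0.289, 0.375 and 0.150 in the second. The authors' deposited table gave a difference of -0.174 (FDR 0.00782). Inclusion reads there were 18, 23 and 22 against 19, 12 and 10. Skipping reads, which join the 75 nt exon to the outer upstream exon, were 114, 101 and 143 against 28, 12 and 34. Reads of the 96 nt exon that do not reach the 75 nt exon also count as inclusion. These levels are thus not shares among transcripts that hold the 75 nt exon. Between the outer exons the 96 nt exon was at 0.290, 0.129 and 0.151 against 0.129, 0.087 and 0.086, a difference of 0.089 in the authors' deposited table with an FDR of 0.330. Where one of the 2 exons was used, the 96 nt form made up 0.074, 0.075 and 0.042 in the first set and 0.388, 0.489 and 0.239 in the second (-0.308 in the authors' deposited table). This value uses the same inclusion reads as the listings of the 75 nt and 96 nt exons between the outer exons. It is no separate measurement of either.

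Slc38a6 belongs to a family of sodium-coupled neutral amino acid transporters. Its largest difference was in a 101 nt exon, chr12:73293699-73293799 on the plus strand, present in 2 of 8 annotated transcripts. In both the coding region ends inside the exon, at a TAA after 80 bases, for a coding sequence of 393 nt against 1371 nt in the longest annotated transcript, which lacks it. One of the 2 is annotated as a target of nonsense-mediated decay. The exon is shown up to this stop codon.
Slc38a6 101 nt exon, to the stop codon: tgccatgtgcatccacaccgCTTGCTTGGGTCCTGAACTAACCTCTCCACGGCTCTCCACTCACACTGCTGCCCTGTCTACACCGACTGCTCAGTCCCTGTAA
Slc38a6 59 nt exon: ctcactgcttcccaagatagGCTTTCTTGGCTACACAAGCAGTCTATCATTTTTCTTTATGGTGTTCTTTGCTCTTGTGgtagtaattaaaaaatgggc

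The 101 nt exon of Slc38a6 was at 0.673, 0.837 and 0.943 in the first set and 0.056, 0.121 and 0.286 in the second, on a mean of 25.8 reads. The sets did not overlap, and the authors' deposited table gave 0.663 (FDR 1.03e-09). The 59 nt exon, chr12:73337510-73337568, was at 1, 0.886 and 1 in the first set and 0.739, 0.654 and 0.659 in the second, a difference of 0.278 in the authors' deposited table (FDR 1.54e-05). No annotated transcript that spans it leaves the 59 nt exon out, and its length is not a multiple of 3. Both exons had fewer than 20 reads in at least one library.

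Features of the exons that played no part in choosing the genes were compared next. The comparison takes the 9 cassette exons printed above that belong to changed events. It leaves out the Rtn3 exons and the 103 nt, 102 nt and 65 nt exons of Anxa7, which are given at the end. All 9 are coding in at least one transcript. Of these, 7 have a length that is a multiple of 3, the exceptions being both Slc38a6 exons, while 39.9% of the 34977 unique skipped exons in the table have such a length. The median pyrimidine share of the 9 was 62.4%, against a median of 47.5% over all skipped exons. Set beside exons within 5 nt of their own length, 6 of the 9 lay at or above the 90th percentile of pyrimidine share. The 12 nt exon of Sidt2 (91.7%) had no exon of like length above it among 137. The Anxa7 exon reached 68.2% (percentile 99.4), the 59 nt and 101 nt exons of Slc38a6 67.8% (99.1) and 62.4% (97.8), and the 27 nt and 42 nt exons of Tpd52 63.0% (92.6) and 59.5% (90.4). The 69 nt exon of Sidt2, at 56.5%, lay at percentile 87.8. The 75 nt and 96 nt exons of Sbf2, at 45.3% and 43.8%, lay at percentiles 44.4 and 31.1. The 57 nt exon of Rtn3, at 75.4%, had no exon of like length above it among 1796, but it was picked out for this feature and is not among the 9. The other exons left out, though in changed events, were less rich. The 103 nt, 102 nt and 65 nt exons of Anxa7 had 48.5%, 52.9% and 52.3% (percentiles 54.9, 77.7 and 77.0). The 2124 nt and 1161 nt exons of Rtn3 had 45.1% and 43.3%. With them included, the group would look less rich in pyrimidines. These are descriptions of a chosen group and carry no test.

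**Figure D4:**
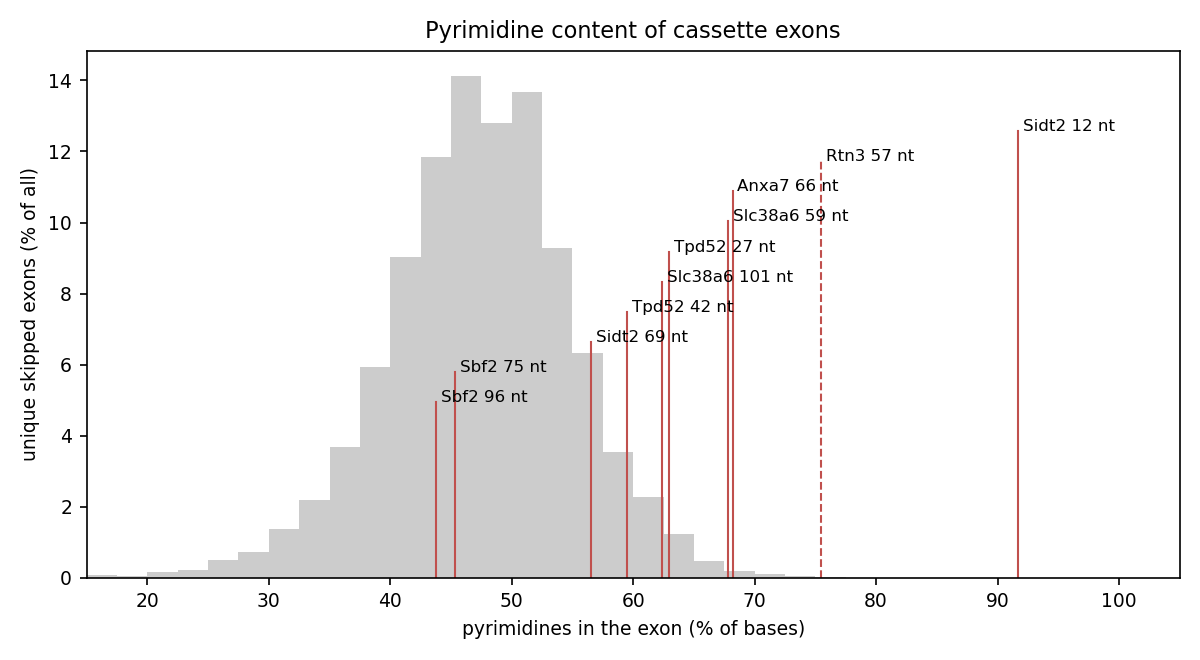
Pyrimidine content (x axis, % of bases) of all unique skipped exons in the table (grey, y axis in % of exons) with 9 short cassette exons of the changed events as red lines and the 57 nt exon of Rtn3, picked out for its pyrimidines, as a dashed line. Heights of the red lines only separate their names. The 103 nt, 102 nt and 65 nt exons of Anxa7 and the large Rtn3 exons, also in changed events, are not drawn. Apart from the Sbf2 exons, the solid lines run from 56.5% to 91.7%.

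The letters TCTT, a core of known PTBP1 binding motifs, were searched on the transcript strand only. They occur 4 times in the 59 nt Slc38a6 exon, 3 times in the Anxa7 exon, 2 times in the 57 nt Rtn3 exon and once in each Sbf2 exon, and in no other exon shown so far. Of all skipped exons, 39.0% hold them, and of exons as long as those of Anxa7 and of Slc38a6 (59 nt), 24.9% and 22.5% do. CTCTCT was found in none of them. For the Anxa7 exon the intron before it could be read from an annotated transcript that retains it, and 58% of its last 100 bases are pyrimidines, where the median over the 5323 skipped exons with such a window is 55%. The window is shown with TCTTCTT, which holds 2 overlapping matches, in capitals, and 57.9% of the 5323 windows hold TCTT.
Anxa7, 100 bases of intron before the 66 nt exon, chr14:20467524-20467623: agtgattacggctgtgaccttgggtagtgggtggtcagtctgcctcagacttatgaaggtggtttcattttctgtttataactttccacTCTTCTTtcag

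Gene levels, which the choice of genes did not use, are given as 1 FPKM (fragments scaled to transcript length and library size) value per group with no spread between libraries. The targeted gene, Ptbp1, was listed at 230.0 FPKM in WT and 122.8 FPKM in PTBP1_KO. None of the 8 genes passed the authors' q-value of 0.05, which 0.537% of tested genes did, and none had an unadjusted p below 0.05, which 4.35% of tested genes had. Sbf2 came closest, at 11.8 FPKM in WT and 13.5 FPKM in PTBP1_KO, and its p in the authors' deposited table was 0.261. Tpd52, the most abundant, was listed at 128 and 142 FPKM, Rtn3 at 69.1 and 70.5, Anxa7 at 45.2 and 49.2, and Sidt2 at 26.2 and 28.8. Slc38a6 stood at 4.88 and 4.89 FPKM and Hps1 at 4.57 and 4.69. The median log2 ratio of PTBP1_KO over WT, after adding 1 FPKM, was 0.07 over the 8 and 0.02 over all tested genes, whose central 90% ran from -0.27 to 0.30. In bulk RNA, fewer cells of a type and less RNA per cell cannot be told apart.

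**Figure D5:**
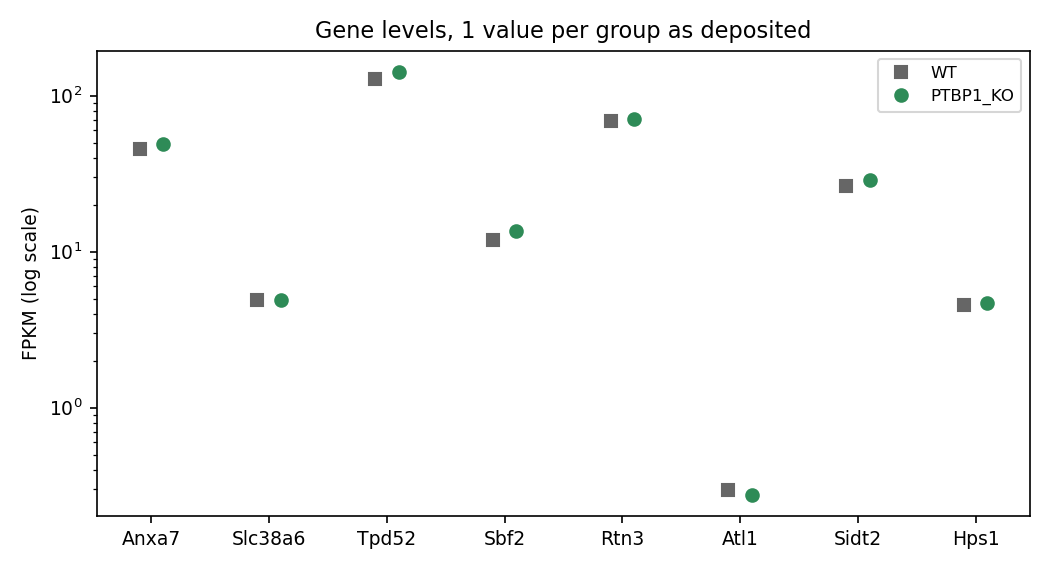
FPKM on a log scale (y axis) of the 8 genes in WT (squares) and PTBP1_KO (circles), 1 value per group as deposited, with no error available. The paired symbols lie close together for every gene, from 0.298 and 0.277 FPKM in Atl1 to 128 and 142 FPKM in Tpd52.

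Cell type markers were set beside these levels. The 7 epithelial markers summed to 5357 FPKM in WT and 5807 FPKM in PTBP1_KO, and 0 of 7 passed the threshold. Neuron, glia, muscle, stroma and endothelial markers were low, and Nos1 (neurons) and Sox10 (glia) were listed at 0 in both groups. Of 5 tested neuron markers, 4 were higher in PTBP1_KO and 3 had an unadjusted p below 0.05 (4.35% of all tested genes had). Ret was at 0.694 FPKM in WT and 1.12 FPKM in PTBP1_KO. Of 3 tested muscle and stroma markers, 1 was higher in PTBP1_KO and 2 had an unadjusted p below 0.05. Col3a1 was at 0.749 and 0.328 FPKM. None of these markers was called. Summed levels were 2.18 and 3.13 FPKM for 11 enteric neuron markers, 0.682 and 0.539 FPKM for 5 glia markers, 1.42 and 1.22 FPKM for 8 muscle and stroma markers, and 0.606 and 0.657 FPKM for 4 endothelial markers. The 10 immune cell markers summed to 107 FPKM in WT and 189 FPKM in PTBP1_KO, all 9 that were tested were higher in PTBP1_KO, and Gzma, Gzmb and Cd8a rose at q = 0.0125 in the authors' deposited table. The part of these cells in the levels of the 8 genes was not tested. Of the 19 and 36 events of immune and epithelial markers with enough reads none was changed, where the share over all events is 1.56%.

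The relatives of the 8 genes were taken from 8 lists: annexins, SLC38 transporters, the TPD52 family, myotubularins, ER-shaping proteins, the SID1 family, the Hermansky-Pudlak syndrome complexes with their Rabs, and lysosome membrane proteins. Of the 85 genes other than the 8, 77 were tested for level, none was called (0.537% of all tested genes were) and 47 were higher in PTBP1_KO (54.7% of all tested genes were). Their median log2 ratio was 0.04. A changed event was found in 5 of the 60 relatives with a splicing event of enough reads, which is 8.33%, where 6.61% of all genes had one. None of the other listed annexins, myotubularins or Hermansky-Pudlak genes had one, nor had Sidt1.

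Tpd52l2, a second member of the TPD52 family, had a changed exon of the same length as one in Tpd52, 27 nt, at chr2:181510504-181510530 on the plus strand. Its levels were 0.312, 0.328 and 0.397 in the first set and 0.037, 0.169 and 0.034 in the second, and the authors' deposited table gave 0.266 (FDR 1.20e-09). The sets did not overlap. The exons of both genes are alike in 17 of 27 positions, and 66.7% of the Tpd52l2 exon is pyrimidine.
Tpd52l2 27 nt exon: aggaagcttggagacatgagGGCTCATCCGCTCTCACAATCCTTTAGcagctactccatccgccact

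Among the ER-shaping proteins, Rtn4 and Reep6 had a changed exon. The Rtn4 exon of 2361 nt, chr11:29706410-29708770, is the large exon that marks the long isoform Nogo-A, the counterpart of the long Rtn3 isoforms. It was at 0.860, 0.926 and 0.832 in the first set and 0.509, 0.301 and 0.334 in the second, a difference of 0.491 in the authors' deposited table on a mean of 658 reads. The large exon of Rtn3 had a negative difference only in its listing of 37.8 reads and one near 0 in its listing of 570 reads, and the exons of both genes were not tested against each other. The Reep6 exon of 81 nt, chr10:80334713-80334793, known from the isoform of rod photoreceptors, was at 0.540, 0.454 and 0.556 against 0.029, 0.031 and 0.025, a difference of 0.488 in the authors' deposited table on a mean of 1634 reads. The level of Reep6 was 128 FPKM in WT against 168 FPKM in PTBP1_KO (p = 0.0141 and q = 0.625 in the authors' deposited table). The exon is shown as the best covered of these.
Reep6 81 nt exon: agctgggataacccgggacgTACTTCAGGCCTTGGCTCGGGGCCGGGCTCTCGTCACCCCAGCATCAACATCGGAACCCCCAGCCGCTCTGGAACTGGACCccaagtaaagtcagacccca

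Slc38a7, a lysosomal relative of Slc38a6, had a noncoding exon of 106 nt at 0.807, 0.760 and 0.816 in the first set and 0.525, 0.454 and 0.399 in the second (0.335 in the authors' deposited table, mean 36.3 reads). Tmem192, a lysosome membrane protein like Sidt2, had an exon of 335 nt at 0.972, 0.934 and 0.957 against 0.693, 0.720 and 0.696 (0.251 in the authors' deposited table). That length is annotated in 1 transcript, a target of nonsense-mediated decay. A 135 nt form with the same start, found in 2 protein-coding transcripts, was also in a changed event. Reads within the shared part do not tell the forms apart. For the Slc38a7 exon and the 335 nt Tmem192 exon the sets stood apart.

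Outside the 8 genes, the events nearest to them in pattern were found by the distance between the 6 inclusion levels, over 35517 to 35525 skipped exons with 20 or more reads in every library. For each gene only the listing with the largest difference was compared. The exon nearest to both the Anxa7 and the Slc38a6 exon, at distances of 0.219 and 0.317, was a 34 nt exon of Ptbp2, the neuronal relative of PTBP1, at 0.866, 0.840 and 0.948 in the first set and 0.026, 0.031 and 0.053 in the second. The nearest to the Tpd52 exon of 27 nt lay in Ccdc88c, to the Sbf2 exon of 75 nt in Plekha6 and to the Rtn3 exon of 2124 nt in Prepl, at distances of 0.180, 0.20 and 0.458. For Anxa7, Tpd52 and Rtn3 these listings had means of 24.3, 22.8 and 37.8 reads, and the levels in their better covered listings, given above, lie far from those compared here. All patterns share the same 6 libraries.

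In rank, the 8 genes are not a closed group. Ptbp2, with a difference of 0.848 in the authors' deposited table, lies between Anxa7 and Slc38a6 among positive skipped exons, and Malt1 at 0.586 follows Sbf2 at 0.592. Clta at -0.564 follows Rtn3 at -0.587 among negative ones. Among mutually exclusive exons Clta at -0.631 precedes and Tpm2 at -0.462 follows Sidt2 at -0.494. Among retained introns Clcf1 at 0.470 lies between Atl1 and Hps1, and Celf2 at -0.362 follows, all as given in the authors' deposited table.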

How the data were processed

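The submitters' processing notes name the build mm10 and the tools STAR 2.6.1d, Trimmomatic 0.38, bcl2fastq 2.20, Cuffdiff and Cufflinks. The authors deposited 1 FPKM value per group and gene, with a log2 fold change, a test score, a p-value and a q-value, per the file headers. The 5 deposited splicing tables are in the MATS layout and hold inclusion and skipping reads per library, form lengths, a p-value, an FDR and an inclusion level difference, which is a score from -1 to 1 made by the authors. The aligner settings and the splicing tool's version are not given in the sources used here, and the depth of each library is unknown from these files.

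Inclusion levels were recomputed for each library from the reads and form lengths and differed from the deposited ones by at most 0.0005. Coordinates, transcripts and sequences are from GENCODE M21 on GRCm38/mm10, and all 8 genes matched by versioned identifier. For mutually exclusive exons on the minus strand the form lengths placed the second exon in the inclusion form. The sets were not tested against each other. The recomputation was tested on simulated data. Computation used scipy 1.17.1, pandas 2.3.3 and numpy 2.4.6 under Python 3.11.15, with figures from matplotlib 3.10.9.

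The genes, lists and rules were chosen with earlier results of these data known. Named were the 8 genes, each gene's changed events, relatives in the lists with a call of either kind, the event nearest to each gene's leading skipped exon, and the next genes in rank. Alternatives tried were other thresholds, raw read shares, summed reads, leaving out each library, another pseudocount and centring.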

Additional observations from a re-analysis of the deposited data

How the results depend on the processing

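No paired analysis was possible because the splicing columns carry no sample numbers and the gene table has 1 value per group. The 20 changed events became 19 at an FDR below 0.01, 22 at a difference of 0.05, 17 at a difference of 0.2, 14 with 20 reads in every library and 15 with each region counted once. At a mean of 50 reads 13 remained, and Slc38a6, Rtn3 and Atl1 then had none. In raw read shares, which ignore that a long region collects more reads, the largest differences of set means were smaller for Rtn3 (-0.141, from -0.587), Atl1 (0.0972, from 0.506) and Hps1 (0.165, from 0.402). In the listing of the same exon with most reads, an alternative chosen after seeing the data, the difference was 0.249 for Anxa7, 0.0227 for Tpd52 and 0.000922 for Rtn3, which turned the sign of the last. Leaving out each library in turn gave 0.846 to 0.939 for Anxa7, 0.601 to 0.736 for Slc38a6, 0.566 to 0.644 for Tpd52, 0.552 to 0.649 for Sbf2, -0.719 to -0.521 for Rtn3, 0.364 to 0.758 for Atl1, -0.515 to -0.458 for Sidt2 and 0.377 to 0.441 for Hps1. For Atl1 the highest of these came without the second-set library listed at 1. Centring on the median of tested genes, a shift of 0.02, turned the sign of the log2 ratio of Slc38a6 to -0.017 and of the median of the Hermansky-Pudlak list to -0.0073. The count of relatives with a changed event was 5 at a difference of 0.2 too. Of the last 50 and 200 bases of intron before the Anxa7 exon, 68% and 60% were pyrimidines, and other introns were not read because no genome was used here. The cause of these changes was not tested. Depth limits most the events of Anxa7, Tpd52, Slc38a6, Rtn3 and Atl1 with means of 22.5 to 37.8 reads.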

Other observations

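Some events of the 8 genes had a large difference or many reads but did not meet the rule for a changed event. The 101 nt exon of Slc38a6 set against the next exon of 53 nt was at 0.738, 0.828 and 1 in the first set and 0, 0.068 and 0.315 in the second, with a difference of 0.728 in the authors' deposited table on a mean of 14.3 reads. A 15 nt exon of Atl1 was at 0.475, 0.312 and 0 against 1, 1 and 0.475 on a mean of 4.17 reads, and the sets overlapped at 0.475. In Tpd52, the listing of a 149 nt exon against a 102 nt exon was among the best covered, with a mean of 3854 reads. Listed singly as skipped exons, each had a difference of -0.0 in the authors' deposited table. The paired levels are thus a ratio of their reads, and a choice between the exons is not shown. The 149 nt form was at 0.486, 0.478 and 0.530 in the first set and 0.407, 0.406 and 0.414 in the second, and the difference of 0.089 in the authors' deposited table (FDR 0.00238) did not reach 0.1. A 1535 nt exon of Slc38a6 had a difference of 0.230 in the authors' deposited table but an FDR of 0.911, and its sets overlapped.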
